A study of Mus musculus with 9 samples.

Results

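The genes described are the 3 D cyclins (Ccnd1, Ccnd2, Ccnd3), their partner kinases Cdk4 and Cdk6, and 5 inhibitors of cyclin-dependent kinases: Cdkn1a and Cdkn1b of the CIP/KIP family, and Cdkn2a, Cdkn2c and Cdkn2d of the INK4 family. These 10 members were taken by gene symbol from 37022 genes with a row in the deposited tables, and each is represented by its transcript row of highest mean gene-body signal. The signal is that of newly made RNA in mouse CD8+ T cells, the cytotoxic T lymphocytes. Live cells were given 0.2 mM 5-ethynyl uridine, a uridine analogue built into RNA as it is made, for 30 minutes, and the labelled RNA was captured and sequenced. The 9 libraries form 3 groups of 3: acute stimulation (Acute), chronic stimulation (Chronic), and chronic stimulation with inhibition of the kinase MEK (ChronicMEKi). The labels do not say how or how long the cells were stimulated, which MEK inhibitor was used, or the mouse strain, age and genotype. They do not tie the 3 libraries of a group to separate mice or cultures, so p-values measure only the spread between these libraries.

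D cyclins are made in response to growth signals, including those of the T cell receptor and of cytokines, and they switch on Cdk4 and Cdk6. The active kinases phosphorylate the retinoblastoma protein RB, which then releases E2F factors that drive the genes of S phase. INK4 proteins bind Cdk4 and Cdk6 themselves and keep D cyclins away, whereas the CIP/KIP proteins p21 (Cdkn1a) and p27 (Cdkn1b) act mainly on cyclin E and cyclin A complexes with Cdk2.

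Deposited gene-body signal summed to 48601757 to 52216192 per library, a scaled quantity and not a number of reads, so the depth in reads is unknown. Rows of genes that resemble ribosomal RNA took 19.1% to 22.3% of it in Acute, 34.2% to 40.6% in Chronic and 29.0% to 36.1% in ChronicMEKi. Libraries were therefore scaled by a trimmed mean of log ratios. Scaling by library totals instead shifted the median gene by -0.50 (log2) between Chronic and Acute and by -0.37 between ChronicMEKi and Acute, and members whose call this changes are given with both. All 8 markers of the CD8 T cell list, which also holds general T cell genes such as Cd3e and Trac, passed the filter on low signal. Over the 9 libraries Cd8a was at 832 to 4340 and Cd8b1 at 1122 to 2309. The summed scaled signal of this list was 26750 to 31173 in Acute, 18536 to 19347 in Chronic and 22815 to 24838 in ChronicMEKi. Of 5 B cell markers 2 passed, Cd79a (63.1 to 375 over the 9 libraries) and Pax5 (42.3 to 207). The B cell sum was 534 to 565, 189 to 219 and 160 to 435 in these groups, and Ms4a1 stayed at or below 24.5 in every library. Of 6 myeloid markers 3 passed, Fcer1g (45.5 to 132), Adgre1 (17.6 to 122) and Csf1r (27.8 to 107). The myeloid sum was 175 to 326 over the 9 libraries, and Lyz2 and Cd14 stayed at or below 9.68. Of 3 NK markers 1 passed, Eomes (936 to 1815), while Ncr1 stayed at or below 6.40 and Klrb1c at or below 54.2. None of 3 erythroid markers passed. Both CD4 T cell markers with a row passed, Zbtb7b (657 to 1911) and Cd4 (101 to 496). Their sum was 1040 to 1367 in Acute, 1054 to 1383 in Chronic and 1729 to 2016 in ChronicMEKi. The part of these other cell types in the results was not tested. Dusp6, a feedback phosphatase of the MEK-ERK pathway, had a scaled signal of 2505 ± 291 in Acute, 2395 ± 89.2 in Chronic and 204 ± 9.69 in ChronicMEKi (SD, n = 3 each), a log2 difference of -3.52 between ChronicMEKi and Chronic.

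Of the 10 members, 9 passed the gene-body filter (signal of 50 or more in 3 or more libraries), all but Cdkn2a. In Chronic against Acute, 6 of the 9 changed at an adjusted p below 0.05, where 33.9% of the 15942 genes tested did. The risers were Cdkn1a, Cdkn2c and Cdk4 (18% of all genes rose), and the fallers were Ccnd2, Ccnd3 and Cdk6 (15.9% of all genes fell). In ChronicMEKi against Chronic, 3 of the 9 rose (Ccnd3, Cdk6, Cdkn1a) and none fell, against 17.6% of all genes called, 9.93% higher and 7.65% lower. In ChronicMEKi against Acute, Cdkn1a and Cdkn2c rose and Ccnd2, Ccnd3 and Cdk6 fell, against 25.8% of all genes called, 14.4% higher and 11.5% lower. Every adjusted p of a single gene is limma's, corrected by Benjamini and Hochberg over all genes tested. For the Ccnd3 upstream part, and rows within Ccnd3 and Cdk6 that end before the gene does, the correction also covered the members' other rows. With scaling by library totals, 1 of the 9 rose and 5 fell in Chronic against Acute, where 6.87% of all genes rose and 42.9% fell. Under that scaling 2 rose and 4 fell in ChronicMEKi against Acute, where 5.99% of all genes rose and 31.1% fell. Likewise 4 rose and 0 fell in ChronicMEKi against Chronic, where 11.1% of all genes rose and 4.65% fell. The comparisons share libraries pairwise, so they are not independent of each other. In bulk libraries, fewer cells making a transcript and less RNA made per cell cannot be told apart.

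**Figure D1:**
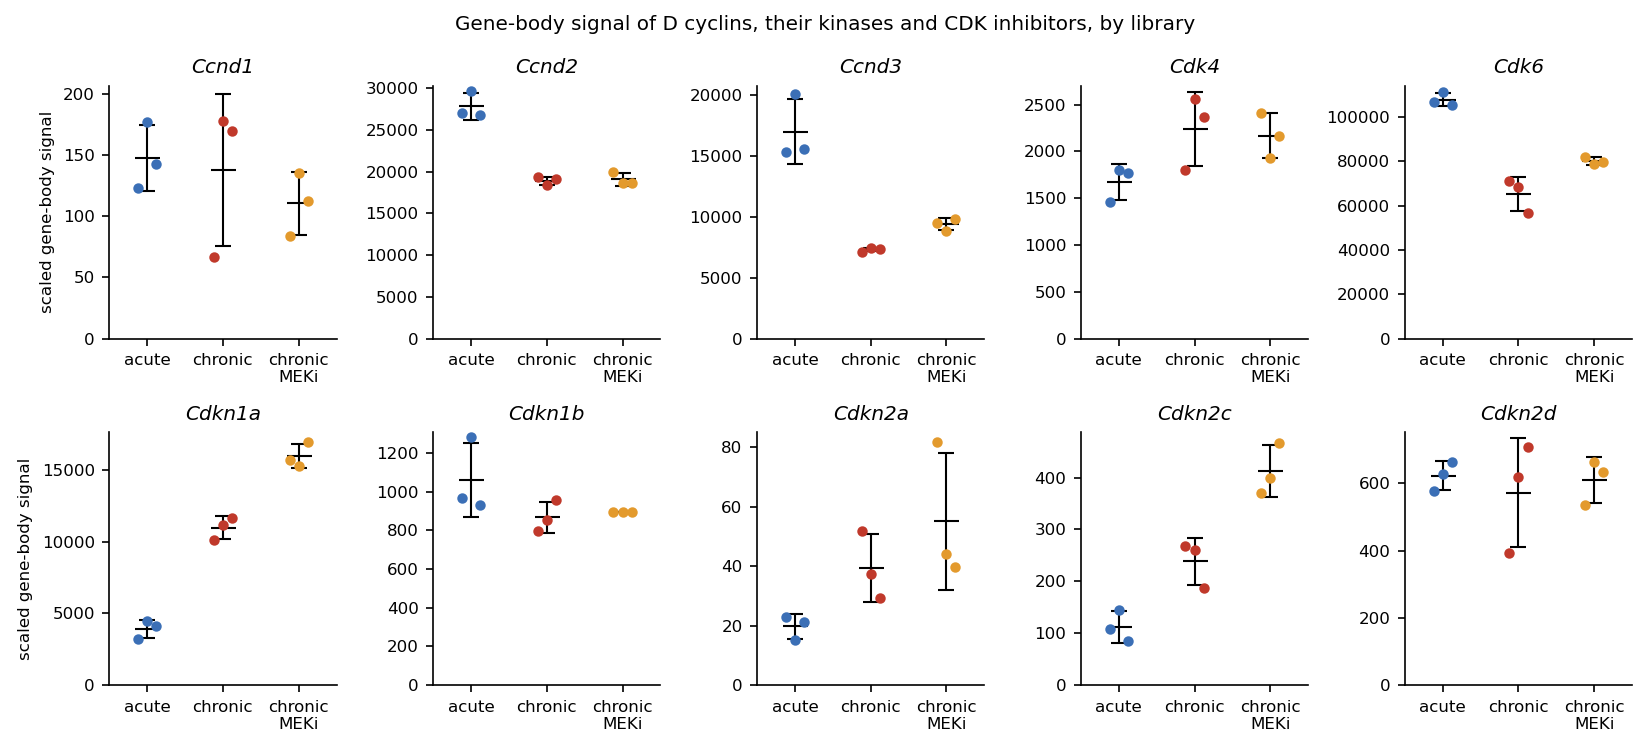
Scaled gene-body signal (y axis) of each member in the 9 libraries, grouped as acute, chronic and chronic with MEK inhibition on the x axis. Points are libraries and bars are group means with SD. Cdkn1a rises from acute to chronic to MEK-inhibited libraries without overlap, Ccnd2, Ccnd3 and Cdk6 lie lower in both chronic groups, and Cdkn2a stays at or below 81.7 in every library.

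Per kilobase of annotated gene span, Ccnd2 had the highest signal of the members in Acute, at 1076 ± 62.1. Cdk6 (577 ± 16.4) and Cdkn1a (567 ± 91.6) followed and did not differ beyond their spread, then Cdk4 (382 ± 43.5). Cdkn2d (215 ± 15.1), Cdkn1b (207 ± 37.7) and Ccnd3 (180 ± 28.5) lay within each other's spread, and Cdkn2c (17.8 ± 4.89), Ccnd1 (14.9 ± 2.72) and Cdkn2a (0.981 ± 0.206) were far lower. In Chronic, Cdkn1a was the highest at 1583 ± 113 per kilobase, above Ccnd2 at 731 ± 18.3. In ChronicMEKi Cdkn1a reached 2303 ± 122 per kilobase and Ccnd2 736 ± 28.6 (SD, n = 3 throughout). This order holds for the chosen row of each gene only. The chosen Ccnd3 row spans 94.6 kb, including a long part before an internal start, so a shorter Ccnd3 row can rank otherwise.

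Ccnd2, the D cyclin with the highest level per kilobase over the chosen rows, lies at chr6:127125162-127151060 (GRCm38, minus strand). Its scaled gene-body signal was 27047, 29711 and 26815 in the Acute libraries, 19310, 18402 and 19088 in the Chronic ones, and 19927, 18683 and 18606 in the ChronicMEKi ones. All 6 chronic libraries lay below all 3 acute ones, and both chronic groups overlapped. The fall was -0.56 ± 0.079 (log2, SE) in Chronic against Acute, adjusted p = 2.21e-05, and -0.55 in ChronicMEKi against Acute, adjusted p = 4.08e-05. ChronicMEKi differed from Chronic by 0.01, with a 95% interval from -0.16 to 0.18 and an adjusted p of 0.959. Antisense genes overlap Ccnd2 at both ends, 9330179D12Rik over 1672 bases and Gm43126 over 994 bases. The counting's use of strand is not given in the sources used here, so reads from the shared stretches cannot be told apart. Their own differences between Chronic and Acute were -0.38 (adjusted p = 0.0549) and -0.11 (adjusted p = 0.591).

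Ccnd3, the D cyclin with known roles in lymphocyte development and expansion, fell in the part of the gene before an internal start. With the main scaling, the row from that start passed no test between Chronic and Acute. The annotation gives Ccnd3 an upstream start at position 47505051 of chromosome 17 and an internal start at 47593470. From the internal start a protein-coding transcript runs to the same 3′ end. RNA begun at the upstream start also runs through the row from the internal start. That row therefore does not measure the output of the internal start alone, and the part of each start in it was not tested. RefSeq promoters (GRCm38.p6, 250 bases before to 50 after the start) exist for both, and they are printed because signal changed differently at the 2 starts. Capitals mark the letters that matched a searched motif: TGTTTAC, the reverse strand of the FOXO motif GTAAACA, at the upstream start, and the ETS core CCGGAAG at the internal start.
Ccnd3 upstream start, chr17:47504801-47505100, plus strand: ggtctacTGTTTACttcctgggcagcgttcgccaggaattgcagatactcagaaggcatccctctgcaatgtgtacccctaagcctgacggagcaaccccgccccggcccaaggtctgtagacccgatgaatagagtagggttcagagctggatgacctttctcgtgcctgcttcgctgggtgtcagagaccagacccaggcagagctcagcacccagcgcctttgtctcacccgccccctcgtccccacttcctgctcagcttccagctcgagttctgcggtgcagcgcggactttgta
Ccnd3 internal start, chr17:47593217-47593516, plus strand: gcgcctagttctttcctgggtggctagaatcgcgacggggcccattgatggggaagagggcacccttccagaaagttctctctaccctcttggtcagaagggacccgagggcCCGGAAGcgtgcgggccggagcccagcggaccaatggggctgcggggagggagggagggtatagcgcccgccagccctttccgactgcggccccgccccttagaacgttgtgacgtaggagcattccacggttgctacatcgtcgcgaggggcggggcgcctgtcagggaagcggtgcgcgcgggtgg
Among 32851 promoters of this length, 3.65% hold the FOXO letters and 8.86% the ETS letters on either strand. A match describes the letters and does not show that a factor binds there.

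Over the full Ccnd3 row (chr17:47505051-47599683), scaled gene-body signal was 15357, 20114 and 15546 in Acute, 7153, 7426 and 7341 in Chronic, and 9491, 8862 and 9832 in ChronicMEKi. The 3 groups did not overlap. Chronic was lower than Acute by -1.21 ± 0.099 (log2, SE; adjusted p = 2.47e-08), ChronicMEKi was lower than Acute by -0.85 (adjusted p = 3.98e-06), and ChronicMEKi was higher than Chronic by 0.36 (adjusted p = 0.0156). That last call was lost without ChronicMEKi library 1 (0.30, adjusted p = 0.127) or library 3 (0.33, adjusted p = 0.0789).

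The split by start was made after the values were seen. It takes the full row to include the signal of the row from the internal start. The regions' limits are not given, so the difference of these rows may hold some signal next to the internal start. In the upstream part, the full row minus the row from the internal start, signal was 11477, 14696 and 11627 in Acute, 2817, 2887 and 2154 in Chronic, and 3304, 3561 and 3529 in ChronicMEKi. Every chronic library thus lay far below every acute one. The group means were 12600 ± 1817, 2619 ± 405 and 3465 ± 140 (SD, n = 3), and the fall was -2.27 in Chronic against Acute (adjusted p = 7.34e-11) and -1.85 in ChronicMEKi against Acute (adjusted p = 2.70e-09). The rise of 0.41 from Chronic to ChronicMEKi had an adjusted p of 0.0201. In the row from the internal start (chr17:47593470-47599689), signal was 3880, 5418 and 3919 in Acute, 4336, 4539 and 5188 in Chronic, and 6186, 5301 and 6303 in ChronicMEKi. Here Acute and Chronic overlapped, and the difference was 0.10 ± 0.12 (SE, adjusted p = 0.551). That value holds for the main scaling. Library totals shifted the median gene by -0.50 in this comparison, and no value of this row with them is given here. ChronicMEKi was higher than Acute by 0.44 (adjusted p = 0.0122), and its difference from Chronic was 0.34 (adjusted p = 0.0685).

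The row from the internal start made up 25.8% ± 0.981 of the full Ccnd3 row in Acute, 64.1% ± 5.66 in Chronic and 63.0% ± 2.84 in ChronicMEKi (SD, n = 3). The log2 ratio of upstream part to internal-start row differed by -2.37 between Chronic and Acute and by -2.30 between ChronicMEKi and Acute. In both, the groups did not overlap, and the two-sided exact permutation p of 0.1 (0.15 adjusted over the 3 comparisons) is the smallest that 3 against 3 libraries can give. Between ChronicMEKi and Chronic the log2 ratio differed by 0.076 (exact permutation p = 0.8). A Ccnd3 transcript row that ends before the internal start, at chr17:47505162-47578886, fell as well, by -2.31 in Chronic against Acute (adjusted p = 8.01e-10) and by -1.96 in ChronicMEKi against Acute (adjusted p = 1.38e-08). Its 0.34 between ChronicMEKi and Chronic had an adjusted p of 0.0988.

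Signal near the starts is given by the pause-region table. At the upstream start of Ccnd3 it was 127, 145 and 59.3 in Acute, 19.9, 0 and 15.1 in Chronic, and 42.4, 24.9 and 68.0 in ChronicMEKi. At the internal start it was 280, 315 and 253 in Acute, 185, 278 and 340 in Chronic, and 307, 275 and 344 in ChronicMEKi. The Chronic libraries lay below the Acute ones at the upstream start, and all groups overlapped at the internal start. No other annotated gene overlaps the upstream part, while Bysl on the opposite strand shares 353 bases with the 3′ end of Ccnd3. Bysl itself fell by -0.70 in Chronic against Acute (adjusted p = 6.87e-05), and its part in the internal-start row was not tested.

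**Figure D2:**
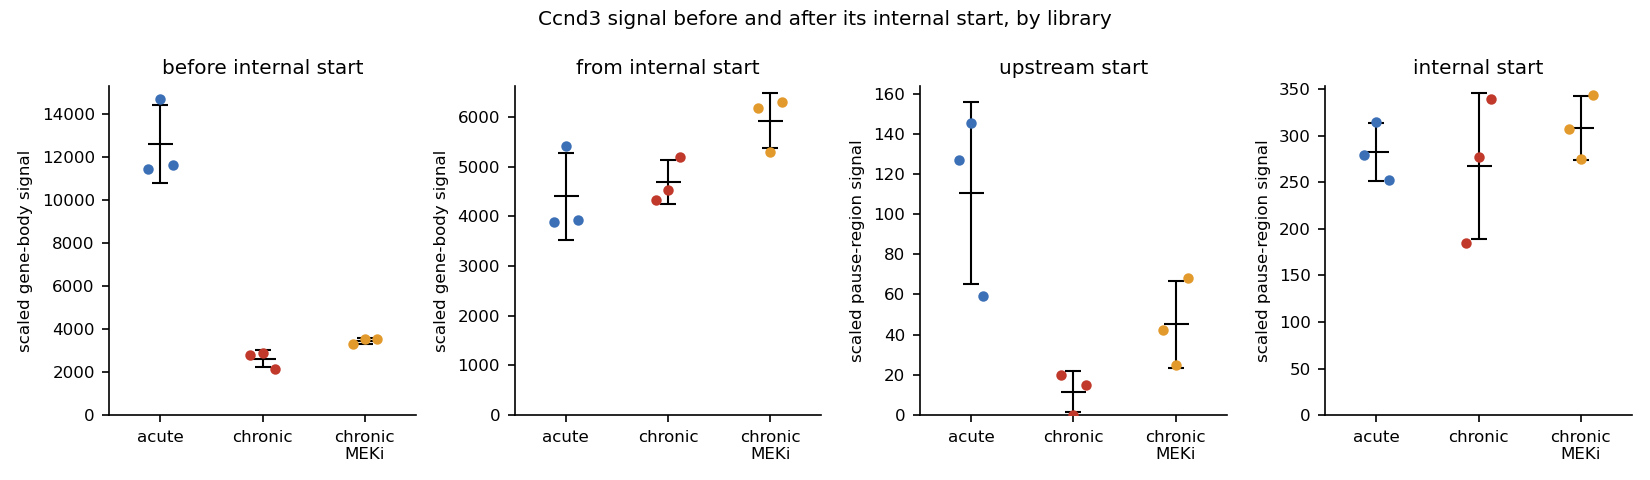
Scaled Ccnd3 signal (y axis) in the 9 libraries by group (x axis): gene-body signal of the part before the internal start and of the row from the internal start, and pause-region signal at each start. Points are libraries and bars are group means with SD. The upstream part falls from 12600 in acute to 2619 in chronic libraries, whereas the internal-start row has means of 4406 and 4687.

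Ccnd1, the D cyclin found in many non-lymphoid cells, was close to the filter. Its scaled gene-body signal was 124, 177 and 143 in Acute, 66.5, 178 and 170 in Chronic, and 84.1, 136 and 112 in ChronicMEKi, and the groups overlapped. The difference between Chronic and Acute was -0.20 with a 95% interval from -1.01 to 0.61 (adjusted p = 0.726), so changes within that interval are not excluded. The gene LTO1, with a mean signal of 725, overlaps 1771 bases at the 3′ end of Ccnd1. Pause-region signal of Ccnd1 was 0 in 6 of the 9 libraries and did not pass the filter.

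By Pearson correlation of scaled log2 gene-body signal over the 9 libraries, the genes most like Ccnd2 were Arhgap30 (r = 0.995), Dgka (0.993) and Mgat4a (0.992). Those most like Ccnd3 were Klf3 (0.987), Nfkbiz (0.984) and Diablo (0.984), and those most like Ccnd1 were Cpeb1 (0.919), H1f0 (0.912) and Itgb1bp1 (0.899). These are descriptions over libraries that fall into 3 groups, picked as the highest among all genes tested.

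Cdk6 gave the largest gene-body signal of the members over its long span (chr5:3343893-3531008, plus strand). Scaled signal was 107045, 111352 and 105432 in Acute, 71046, 68310 and 56514 in Chronic, and 81997, 78727 and 79830 in ChronicMEKi. The 3 groups did not overlap, with ChronicMEKi between the other groups. Cdk6 fell by -0.73 ± 0.092 (log2, SE) in Chronic against Acute (adjusted p = 5.39e-06) and by -0.43 in ChronicMEKi against Acute (adjusted p = 0.00182). The rise of 0.30 in ChronicMEKi against Chronic had an adjusted p of 0.0279. That call was lost without any 1 of the 3 Acute or 3 ChronicMEKi libraries, with differences of 0.23 to 0.31 and adjusted p of 0.0572 to 0.202.

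A short retained-intron row inside Cdk6 (chr5:3470949-3473180) moved against the rest of the gene, and it was picked out after its values were seen. Its gene-body signal was 353, 389 and 405 in Acute, 557, 688 and 580 in Chronic, and 390, 368 and 432 in ChronicMEKi. It rose by 0.66 in Chronic against Acute (adjusted p = 0.00914) and fell by -0.61 in ChronicMEKi against Chronic (adjusted p = 0.0278). The antisense gene Gm17590 overlaps part of this row, and over its own row Gm17590 fell by -0.43 in Chronic against Acute (adjusted p = 0.00153).

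Cdk4, the other D cyclin kinase (chr10:127063534-127067920, plus strand), had a promoter with 4 matches to the E-box CACGTG, the most of any motif in the 12 promoters found for 8 members. It is printed for that reason, with the matches in capitals.
Cdk4, chr10:127063285-127063584, plus strand: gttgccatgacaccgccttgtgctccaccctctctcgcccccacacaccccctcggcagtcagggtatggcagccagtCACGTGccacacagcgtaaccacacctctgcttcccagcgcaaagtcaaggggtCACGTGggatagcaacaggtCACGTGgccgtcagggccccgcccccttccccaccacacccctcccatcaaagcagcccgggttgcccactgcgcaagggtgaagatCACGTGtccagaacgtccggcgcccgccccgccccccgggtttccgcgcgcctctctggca
Among all 32851 promoters, 7.15% hold at least 1 such E-box, as do single promoters of Cdk6 and Cdkn2c among the members. The other motifs searched on both strands were AP-1 (TGANTCA), E2F (TTTGGCGC, TTTCCCGC and TTTGGCGG), STAT (TTCNNNGAA) and CRE (TGACGTCA), held by 7.81%, 2.1%, 8.3% and 1.79% of all promoters. Of these, 1 E2F match was found among the members, in the promoter at the distal start of Cdkn2a.

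Scaled gene-body signal of Cdk4 was 1455, 1799 and 1771 in Acute, 1797, 2558 and 2372 in Chronic, and 2410, 1925 and 2164 in ChronicMEKi. The lowest Chronic library lay within the Acute range. The rise of 0.41 ± 0.14 (log2, SE) in Chronic against Acute had an adjusted p of 0.0282. It was lost without Acute library 1 (0.31, adjusted p = 0.142), Chronic library 2 (0.31, adjusted p = 0.140) or Chronic library 3 (0.36, adjusted p = 0.0828). With scaling by library totals the sign turned, to -0.080 (adjusted p = 0.673). ChronicMEKi differed from Acute by 0.37 (adjusted p = 0.0576) and from Chronic by -0.04 (adjusted p = 0.899). Tspan31 on the opposite strand shares 641 bases with the 3′ end of Cdk4.

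Cdkn1a, which encodes p21, rose the most of the 9 members tested in Chronic against Acute, and it rose further with MEK inhibition. Its gene-body signal over chr17:29093769-29100722 (plus strand) was 3234, 4469 and 4118 in Acute, 10144, 11182 and 11689 in Chronic, and 15759, 15323 and 16965 in ChronicMEKi. The groups did not overlap in any comparison. The log2 differences were 1.49 ± 0.11 in Chronic against Acute (2.81-fold, adjusted p = 4.28e-09), 0.54 ± 0.11 in ChronicMEKi against Chronic (1.46-fold, adjusted p = 0.0013) and 2.03 ± 0.11 in ChronicMEKi against Acute (4.09-fold, adjusted p = 2.27e-10; SE throughout). A transcript from a start further upstream, at 29090979, also rose in both, by 1.44 and 0.64, but it shares most of its span with the main row. Pause-region signal at that upstream start was 22.1 to 72.2 over the 9 libraries, against 290 to 1436 at the main start. AC167363.2, an unspecified annotated transcript on the opposite strand, shares 693 bases at the start of Cdkn1a. It rose in the same comparisons, by 1.31 in Chronic against Acute and 0.84 in ChronicMEKi against Chronic, and reads of the shared stretch cannot be told apart.

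Cdkn1b, which encodes p27, passed the test in no gene-body comparison with the main scaling. Its scaled signal was 966, 1281 and 931 in Acute, 796, 854 and 954 in Chronic, and 892, 894 and 895 in ChronicMEKi, with Acute and Chronic overlapping. The difference between Chronic and Acute was -0.27 with a 95% interval from -0.59 to 0.04 (adjusted p = 0.170). With scaling by library totals it was -0.76 (adjusted p = 0.000394) and on the deposited scale -0.75 (adjusted p = 0.000579). With rows resembling ribosomal RNA left out of the totals it was -0.43 (adjusted p = 0.0246). ChronicMEKi differed from Acute by -0.23 (adjusted p = 0.296). That difference was -0.61 with library totals (adjusted p = 0.00432), -0.57 on the deposited scale (adjusted p = 0.00845) and -0.40 when rows resembling ribosomal RNA were left out of the totals (adjusted p = 0.0459).

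Among the INK4 genes, Cdkn2c, which encodes p18, rose from a low level. Its gene-body signal over chr4:109660876-109667189 (minus strand) was 108, 146 and 84.3 in Acute, 268, 260 and 187 in Chronic, and 370, 400 and 468 in ChronicMEKi. The 3 groups did not overlap. The rise was 1.06 ± 0.27 (log2, SE) in Chronic against Acute (adjusted p = 0.00545) and 1.85 in ChronicMEKi against Acute (adjusted p = 5.24e-05), while the 0.79 between ChronicMEKi and Chronic had an adjusted p of 0.0556. With scaling by library totals the difference between Chronic and Acute was 0.59 (adjusted p = 0.0943) and that between ChronicMEKi and Chronic 0.89 (adjusted p = 0.0362).

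Cdkn2d, which encodes p19Ink4d, had a gene-body signal of 577 to 664 in Acute, 393 to 707 in Chronic and 534 to 663 in ChronicMEKi. The groups overlapped, and Chronic differed from Acute by -0.16 with a 95% interval from -0.59 to 0.27 (adjusted p = 0.578). With library totals that difference was -0.65 (adjusted p = 0.0102). Cdkn2a makes p16Ink4a from its proximal start and p19Arf from its distal start, and both rows were near the bottom of the scale. The row from the distal start (chr4:89274541-89294653, minus strand) had a signal of 23.1, 15.1 and 21.1 in Acute, 51.9, 37.5 and 29.2 in Chronic, and 81.7, 44.1 and 39.6 in ChronicMEKi. The Acute libraries were the lowest, but the row did not pass the filter and was not tested. The row from the proximal start was at or below 12.5 in every library.

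**Figure D3:**
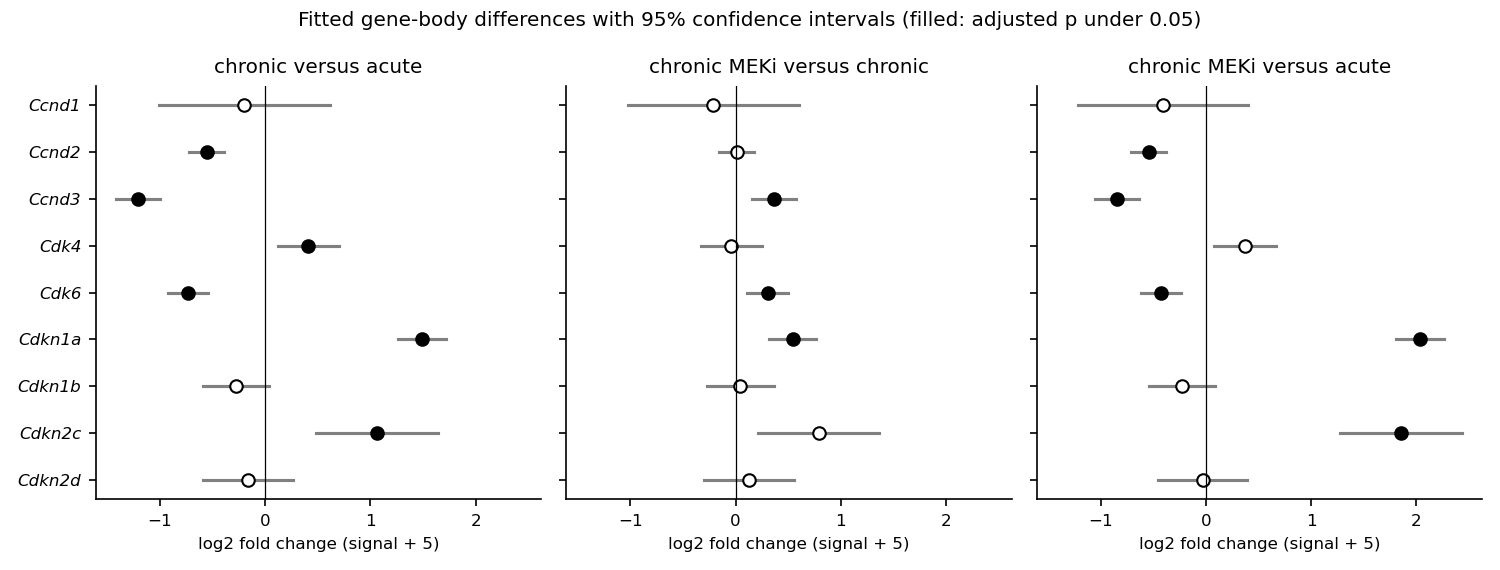
Fitted log2 differences of gene-body signal (x axis) for the 9 members tested, 1 panel per comparison, with 95% confidence intervals. Filled points have an adjusted p below 0.05. Cdkn1a and Cdkn2c lie on the right in both comparisons with Acute and Ccnd2, Ccnd3 and Cdk6 on the left.

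The pause region, the stretch near the start where RNA polymerase can halt, was tested in 7 members, without Ccnd1, Cdkn2a and Cdkn2c. In Chronic against Acute, Cdkn1a rose by 0.98 (adjusted p = 0.000905), and Ccnd2 (-0.70, adjusted p = 0.0222), Ccnd3 (-3.00, adjusted p = 0.00163) and Cdk6 (-0.95, adjusted p = 0.00303) fell, 4 of 7 against 10.7% of 7678 genes tested. These are the directions of their gene-body signal. Cdkn1a also rose in ChronicMEKi against Chronic (0.72, adjusted p = 0.0355) and in ChronicMEKi against Acute (1.71, adjusted p = 1.24e-06), 1 of 7 members in each, against 3% and 5.95% of all genes. The first of these was lost without any 1 of the Chronic or ChronicMEKi libraries, with adjusted p from 0.0635 to 0.200. The Ccnd2 call was lost without Acute library 2 (-0.62, adjusted p = 0.0701) or Chronic library 2 (-0.54, adjusted p = 0.149). With library totals, which shifted the median pause region by -0.56 in Chronic against Acute, the Cdkn1a difference was 0.38 (adjusted p = 0.231). In ChronicMEKi against Acute that shift was -0.33, and Ccnd2 (-0.94, adjusted p = 0.0105) and Cdk6 (-0.85, adjusted p = 0.0458) passed as lower.

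Pausing here is the log2 ratio of pause-region to gene-body signal of RNA labelled for 30 minutes. Halted polymerase itself was not measured. The ratio passed the limma test in 0 of 7 members in each comparison. Of 7413 genes, 0.054%, 0.0135% and 0% passed in Chronic against Acute, ChronicMEKi against Chronic and ChronicMEKi against Acute. At an unadjusted p below 0.05 the ratio was lower in Chronic than in Acute for Ccnd3 (-1.79, adjusted p = 0.212) and Cdkn1a (-0.51, adjusted p = 0.429). It was higher in ChronicMEKi than in Chronic for Ccnd3 (1.43, adjusted p = 0.732). The Ccnd3 values set signal near the upstream start against a gene body that includes the internal start. They also rest on the same weak pause-region row. Without Acute library 2 the Cdkn1a difference was -0.85, with an adjusted p of 0.0416.

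The genes that act beside and below the members were described by lists. Of all genes tested, 18% rose and 15.9% fell in Chronic against Acute. In ChronicMEKi against Chronic 9.93% rose and 7.65% fell, and in ChronicMEKi against Acute 14.4% rose and 11.5% fell. Among 8 cyclins, kinases and a phosphatase of the step from G1 to S, 5 rose and 1 fell in Chronic against Acute, with a median of 0.71 against -0.02 over all genes tested. Ccne2, an E cyclin that activates Cdk2, rose by 2.21 and Ccnh, the cyclin of the CDK-activating kinase, fell by -1.14. With MEK inhibition Ccne1 rose further (0.65) and Ccne2 fell (-0.38) against Chronic. Of 6 genes for the turnover of cyclins and their inhibitors, 4 rose and 2 fell in Chronic against Acute: Skp2, which marks p27 for degradation, rose by 1.25, and Ambra1, which marks D cyclins for degradation, fell by -0.54. In ChronicMEKi against Chronic the limma test called 0 of these 6. The inhibitors Cdkn1c and Cdkn2b did not pass the filter.

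Of 13 genes of the RB family and the E2F and DP factors, 8 rose and 1 fell in Chronic against Acute (median 0.55), and 8 rose and 0 fell in ChronicMEKi against Chronic (median 0.35 against 0.04 over all genes). E2f8, a repressive E2F, rose by 1.97 and E2f5 fell by -0.63 in Chronic against Acute, and Rb1 itself rose by 1.05 with MEK inhibition. The second count was 4 without ChronicMEKi library 1 and 5 without library 3. Of 19 E2F target genes, 15 rose and 0 fell in Chronic against Acute (median 0.98) and all 19 rose in ChronicMEKi against Acute (median 0.98 against 0.00 over all genes), or 12 of 19 with library totals. Rrm2, a subunit of ribonucleotide reductase, rose by 2.01 and 2.27 in these comparisons, and Mybl2, a transcription factor of S phase entry, by 1.86 and 1.98. In ChronicMEKi against Chronic 3 E2F targets rose and 0 fell, but leaving out a library gave 0 to 4 higher (0 without Chronic 2, ChronicMEKi 1 or 3, and 1 without Acute 1 or 2 or Chronic 1) and up to 3 lower (2 without Acute 1 or 3, 3 without Acute 2, and 1 without Chronic 3 or ChronicMEKi 1).

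Cdkn1a is a textbook target of p53, and 10 of 11 other p53 targets passed the filter. Of these, 7 rose and 0 fell in Chronic against Acute (median 0.67), 7 rose and 0 fell in ChronicMEKi against Chronic (median 0.50), and 9 rose and 0 fell in ChronicMEKi against Acute (median 1.00). Btg2, an antiproliferative gene, rose by 1.26 in Chronic against Acute, and Bbc3, a gene of cell death, rose by 1.10 in ChronicMEKi against Chronic. Among 9 regulators that act on the members, 2 rose and 1 fell in Chronic against Acute (median 0.04), near the shares of all genes (18% and 15.9%). Foxo1, a factor of quiescent and memory T cells, fell by -1.55 and then rose by 1.21 with MEK inhibition, while Foxo3 rose by 0.75 and 0.28. Myc, a growth factor-induced transcription factor, was lower in ChronicMEKi than in Chronic by -0.62 (adjusted p = 0.0048). Of these 9 regulators, 4 rose and 1 fell with MEK inhibition against Chronic. Without Acute 1 or 3, Chronic 3, or ChronicMEKi 1 or 2 the first of these counts was 2, and without Chronic 3 the second was 0. In Chronic against Acute, 1 rose without Acute 1 or Chronic 3.

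Some counts of 1 or 2 genes moved when a library was left out. Falls between Chronic and Acute numbered 1 turnover gene without Acute 1, 2 genes of the G1 to S list without Chronic 1, 2 of the RB and E2F list without Chronic 1 or 2, and 1 p53 target without Acute 2 or Chronic 3. Between ChronicMEKi and Chronic, the G1 to S list had 0 falls without Chronic 2 or ChronicMEKi 3 and 2 rises without Chronic 3.

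The list counts against Acute depended on the scaling. With library totals, under which the median gene moved by -0.50 between Chronic and Acute, 11 E2F targets rose and 4 fell, 5 genes of the RB and E2F list rose and 5 fell, and 1 of the G1 to S list rose and 3 fell. Likewise 1 p53 target rose and 2 fell, 3 turnover genes rose and 2 fell, and 0 regulators rose and 7 fell. Of all genes, 6.87% rose and 42.9% fell under that scaling. In ChronicMEKi against Acute, where the median gene moved by -0.37, 12 E2F targets rose and 0 fell, 9 genes of the RB and E2F list rose and 1 fell, and 8 p53 targets rose and 0 fell. There, 4 of the G1 to S list rose and 3 fell, 3 turnover genes rose and 2 fell, and 1 regulator rose and 4 fell, against 5.99% of all genes higher and 31.1% lower. List medians move with the scaling by about as much as the median gene does. The 5 members that fell in Chronic against Acute under library totals were Ccnd2, Ccnd3, Cdk6, Cdkn1b and Cdkn2d.

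**Figure D4:**
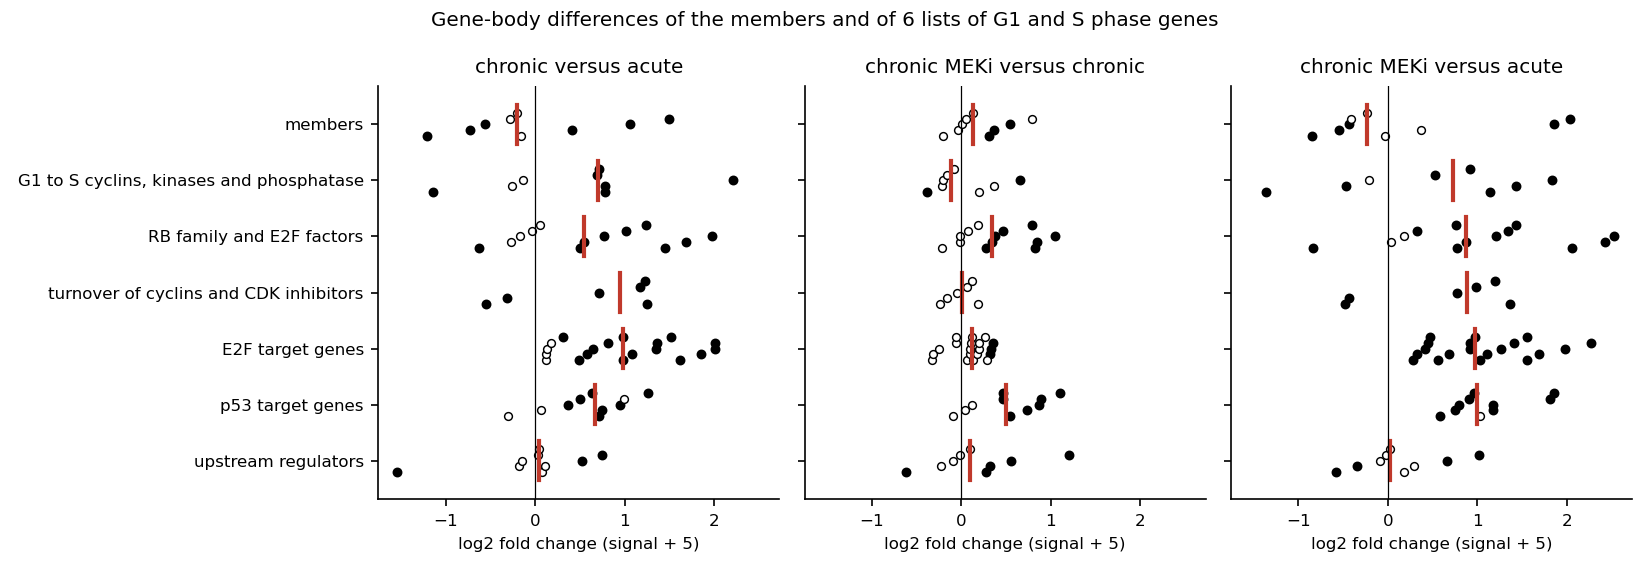
Log2 differences of gene-body signal (x axis) of the members and of the genes of 6 lists (y axis), 1 panel per comparison. Points are genes and vertical ticks are medians. E2F targets lie to the right of 0 in both comparisons with Acute, with medians of 0.98, while the members lie on both sides.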

How the data were processed

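Values are signal per transcript, deposited by the authors in a gene-body and a pause-region table (names read here from GB and PR; the regions' limits are not given in the sources used here). Per the submitters' processing notes, reads were trimmed with Trim Galore 0.6.10, aligned with STAR 2.7.0a to mm10 and handled with SAMtools 1.19.2 and R 4.1.2. Although named counts, values were whole multiples of a step of 0.764 to 1.06 per library, with 4 steps more frequent than 1, so they were not treated as reads.

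Of 118482 rows per table, 117346 matched a GENCODE M21 identifier and version, a further 383 the identifier alone, and 753 were unmatched and left out. Each table was filtered (signal of 50 or more in 3 or more libraries), scaled by a trimmed mean of log ratios (30% and 5% trimmed), and tested as log2(signal + 5), which understates folds of weak genes. One limma model (3.58.1, R 4.3.3) with a mean per group, trend and robust moderation was fitted to 9 libraries. The fit was also run on simulated signal with independent noise between libraries, which cannot test the dependence on scaling. Python 3.11.15 with pandas 2.3.3 joined rows to genes.

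The named genes are the 10 members, the largest risers and fallers of each list, the 3 genes most like each D cyclin, and genes overlapping a member. The members and lists were chosen with earlier results of these data known. Same-numbered libraries correlated at -0.53 to 0.10 after removal of group means, in no pair above 0.1, so numbers were not treated as pairs. Libraries of different number and group correlated at -0.37 to 0.51, with 5 of 18 pairs above 0.1. The source of those correlations was not tested. Alternatives were other scalings, pseudocounts and filters, the longest transcript, no trend, the compared libraries alone, a replicate block, leaving out each library and, after seeing the data, the Ccnd3 split.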

Additional observations from a re-analysis of the deposited data

How the results depend on the processing

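The directions of Ccnd2, Ccnd3, Cdk6, Cdkn1a and Cdkn2c between Chronic and Acute gene bodies held under each alternative run, except that the Ccnd3 row from the internal start, added after seeing the data, gave 0.10 in Chronic against Acute and 0.44 in ChronicMEKi against Acute. Cdk4 turned to -0.080 with library totals and -0.063 on the deposited scale. Cdkn1a pause-region signal turned to -0.53 in ChronicMEKi against Chronic with the longest transcript row, which starts upstream. Depth in reads is unknown, and signal of Ccnd1, Cdkn2a and Cdkn2c limits what can be seen of them. Without the filter, Ccnd3 (0.29), Cdk6 (0.23) and Cdkn1a (0.47) gene bodies no longer passed in ChronicMEKi against Chronic (adjusted p = 0.337, 0.236 and 0.0617), and without trend and robust moderation Ccnd3 and Cdk6 did not (adjusted p = 0.110 and 0.125). The causes were not tested.

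Members called in ChronicMEKi against Chronic gene bodies numbered 3, against 0 without the filter, 1 without trend and robust moderation, and 1 to 3 when 1 library was left out. In the pause region, ChronicMEKi against Chronic gave 1 member, against 0 without the filter, with the longest transcript and without trend, and 0 to 1 when 1 library was left out. ChronicMEKi against Acute gave 1 pause-region member, against 3 with library totals, 2 with a filter at 200, and 0 with the longest transcript. Chronic against Acute gave 4, against 1 without trend. Pausing in Chronic against Acute gave 0, and 0 to 1 when 1 library was left out.

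With the replicate number as a block, ChronicMEKi against Acute gave 2 members called in the pause region, and pausing gave 2 genes called in ChronicMEKi against Chronic and 1 in ChronicMEKi against Acute. Under the block Cdk4 also passed in ChronicMEKi against Acute gene bodies (0.37, adjusted p = 0.0488).

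Over all genes, gene-body calls without the filter fell to 1637 in ChronicMEKi against Chronic and 2642 in ChronicMEKi against Acute. Pause-region calls in Chronic against Acute were 1723 with library totals, 494 without the filter, 455 with a filter at 200 and 545 to 750 when 1 library was left out. In ChronicMEKi against Chronic they were 107 without the filter, 110 without trend and 109 to 279 when 1 library was left out. In ChronicMEKi against Acute they were 206, 232 and 233 to 512.

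Genes called for pausing in Chronic against Acute numbered 7 on the deposited scale, 2 with totals without ribosomal RNA-like rows, 0 with a pseudocount of 0.5, 42 with one of 20, 10 without the filter, 2 with a filter at 200, 1 with the compared libraries alone, 0 without trend and 0 to 46 when 1 library was left out. In ChronicMEKi against Chronic they numbered 0 with a pseudocount of 20, without the filter, with a filter at 200 and without trend, and 0 to 2 when 1 library was left out. In ChronicMEKi against Acute they numbered 1 with library totals, 6 with a pseudocount of 20, 1 without the filter and 0 to 35 when 1 library was left out. With a filter at 200, Ccnd1 gene bodies and the pause regions of Ccnd3 and Cdkn1b were not tested.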
